A study of Mus musculus with 12 samples.

Results

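The 9 genes described here encode steroid dehydrogenases and reductases of the mouse liver: Hsd3b2, Hsd3b3, Hsd3b5, Hsd11b1, Hsd17b2, Hsd17b6, Srd5a1, Srd5a2 and Akr1c6. They were taken by name from a table of 24527 gene symbols, which also has rows for other enzymes that interconvert steroids. The choice was made with earlier results of these data known, so the share of them that is called is not that of an unbiased sample. All 9 were found in the table and passed the filter on low counts. The table holds RNA-seq counts from the livers of 12 mice aged 39 weeks, 3 in each of 4 groups: naturally conceived females and males, whose CF1 mothers were mated with B6SJL males, and females and males of the same cross conceived by IVF, the fertilization of eggs in a dish followed by transfer of the embryos to a foster mother. The IVF protocol was that of the Jackson Laboratory, per the labels, and all groups share the hybrid background and the age. The labels name each mouse separately, but do not say whether mice shared a litter, so p-values measure the spread between these 12 livers. By its title the study asked whether IVF acts differently on the liver of each sex.

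The liver takes up circulating steroid hormones and interconverts them before they are excreted, and the enzymes that do so set how much active hormone the organ itself meets. A dehydrogenase oxidises a hydroxyl group of the steroid to a ketone, a ketosteroid reductase does the reverse, and a 5-alpha reductase saturates a double bond of the first ring. In mice many liver genes of this kind differ between adult males and females, a difference known to follow the sex-specific pattern of growth hormone release.

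Hsd3b2, Hsd3b3 and Hsd3b5 lie close together on chromosome 3 (GRCm38, minus strand), at 98709255 to 98724543, 98741523 to 98763127 and 98618634 to 98630252. Their coding sequences have 1122 bases each, and those of Hsd3b2 and Hsd3b3 were 95.1% identical, with a longest identical run of 228 bases. Hsd3b3 and Hsd3b5 were 80.8% identical, and Hsd3b3 and Hsd3b6, another gene of the cluster, 94.5%. The stretch from coding base 586 to 645 (GENCODE release M21, GRCm38) is shown because reads can be told apart there. Capitals mark the bases that differ from Hsd3b3, of which there were 13 in Hsd3b2, 11 in Hsd3b6 and 31 in Hsd3b5.
Hsd3b3: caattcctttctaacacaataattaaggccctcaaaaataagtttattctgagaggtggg
Hsd3b2: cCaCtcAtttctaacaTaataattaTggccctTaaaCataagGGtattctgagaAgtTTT
Hsd3b6: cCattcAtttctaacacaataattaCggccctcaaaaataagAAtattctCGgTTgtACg
Hsd3b5: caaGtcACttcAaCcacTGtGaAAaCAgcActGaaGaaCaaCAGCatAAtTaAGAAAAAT

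In other stretches the copies are identical over the length of a short read. Of the 75-base windows of the longest coding transcript, 16.1% in Hsd3b2, 25.1% in Hsd3b3 and 11.7% in Hsd3b5 occurred without a mismatch in a transcript of another gene. For Hsd3b2 and Hsd3b3 the gene most often shared was the other of the pair, and for Hsd3b5 it was Gm10681, to which 0 counts were assigned in all 12 livers. Among the other genes the share was 15.7% in Srd5a1, with the overlapping gene Gm17108, 12% in Hsd17b6, with Rdh1, 4.7% in Srd5a2, and 0% in Hsd11b1, Hsd17b2 and Akr1c6. How the authors' counting treated reads that fit several genes, and whether it used the strand, is not given in the sources used here. Values of the Hsd3b genes are therefore uncertain as to the copy, and sums over near-identical copies are given beside them.

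The 250 bases before the start site (RefSeq, GRCm38.p6) are shown for the 3 Hsd3b genes because all 3 were higher in males. For Hsd3b5 the RefSeq start site lies upstream of the start of the gene in GENCODE. Hsd3b3 and Hsd3b5 aligned over 199 of these bases with 75.9% identity, and capitals mark their longest identical run of 24 bases. In the promoter of Hsd3b2 the best local match was 15 bases to Hsd3b3 and 31 bases to Hsd3b5.
Hsd3b3 (chr3:98763129-98763378, minus strand): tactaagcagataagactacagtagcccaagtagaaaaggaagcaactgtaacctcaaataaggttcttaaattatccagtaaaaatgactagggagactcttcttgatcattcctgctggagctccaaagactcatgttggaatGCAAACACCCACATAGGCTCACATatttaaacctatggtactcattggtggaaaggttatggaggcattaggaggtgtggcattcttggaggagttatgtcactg
Hsd3b5 (chr3:98645535-98645784, minus strand): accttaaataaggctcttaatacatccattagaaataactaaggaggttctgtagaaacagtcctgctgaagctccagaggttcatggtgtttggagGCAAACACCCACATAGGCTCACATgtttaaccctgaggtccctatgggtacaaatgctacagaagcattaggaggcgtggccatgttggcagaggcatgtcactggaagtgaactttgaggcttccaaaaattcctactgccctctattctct
Hsd3b2 (chr3:98724544-98724793, minus strand): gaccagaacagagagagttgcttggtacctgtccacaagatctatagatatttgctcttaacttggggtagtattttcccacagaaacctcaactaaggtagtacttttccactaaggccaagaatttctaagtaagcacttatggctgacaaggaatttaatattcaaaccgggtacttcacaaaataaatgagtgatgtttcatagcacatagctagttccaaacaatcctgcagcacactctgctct
Windows were available for 8 of the 9 genes, and 10 windows were searched on both strands, since Hsd3b3 and Hsd17b6 have more than 1 start site. The STAT5-type motif TTCNNNGAA was in 7.02% of 32851 promoter windows of this length and in 0 of these 10. The hormone receptor half-site TGTTCT, present in 16.1% of all windows, had 1 match, in Hsd3b2 at base -246 from the start site, on the strand opposite to the gene. TATAAA, present in 12.4%, had 1 match, in Akr1c6 at base -164. The motifs CAAAGTCCA and ATTGAT, present in 0.384% and 6.72% of all windows, had 0 matches in the 10. A match is a description of letters and not evidence that a factor binds.

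The libraries held from 6826534 to 27832271 counts, and IVF female replicate 1 and natural female replicate 2 were the smallest, at 6826534 and 8056230. Xist, expressed from the inactive X chromosome, matched the sex labels in all 12, at 772 to 1354 CPM in females and at most 1.35 CPM in males. CPM, the unit of the levels below, are counts divided by the TMM-scaled library size. Differences were tested with edgeR's quasi-likelihood test in 1 model of all 12 livers, with Benjamini-Hochberg adjustment over 13204 genes, and a gene is said to be called where the adjusted p-value was under 0.05. The 2 sex comparisons use the same livers as the 2 IVF comparisons, so their values are given side by side and are not independent.

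Of the 9 genes, 3 were called between natural males and natural females, all higher in males (Hsd3b2, Hsd3b3 and Hsd3b5), and 2 were called between IVF males and IVF females, also higher (Hsd3b2 and Hsd3b5). Over all genes 1.77% were called among natural livers, 0.894% being higher in males, and 2.19% among IVF livers, with 0.909% higher. Averaged over both modes of conception, 4 were called and all were higher in males (the same 3 and Srd5a1), against 7.2% of all genes and 3.57% higher. No member was called between IVF and natural livers in females, in males or in the interaction, where 0%, 0.00757% and 0% of all genes were called. The median male minus female log2 fold change (mean of both modes) was 0.29 over the 9 genes and -0.01 over all genes tested. Under TMM, natural males had 118 genes called higher and 116 lower than natural females, against 120 and 169 in IVF males, and 472 and 479 on average. Scaled by library size alone they were 88 and 422, 92 and 221, and 252 and 1373, with the same 4 members higher in males on average.

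**Figure D1:**
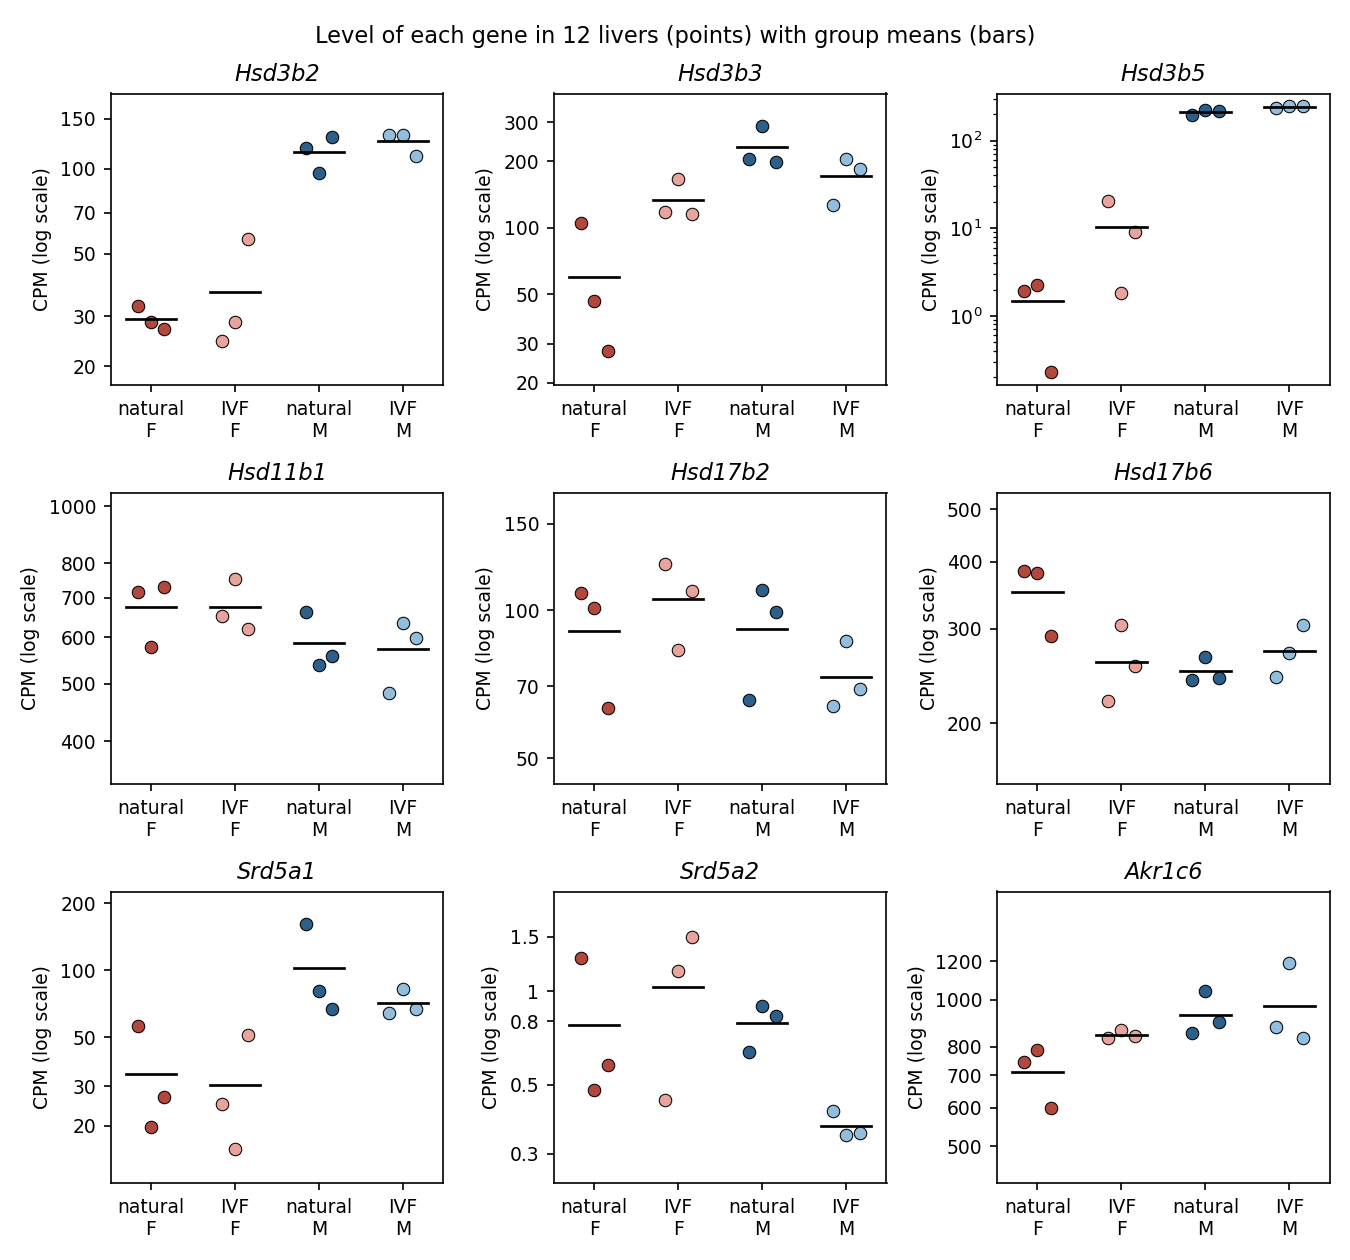
Level of each of the 9 genes in CPM (log axis) in the 12 livers, 3 per group, for natural (dark) and IVF (light) females (red) and males (blue). Points are livers and bars are group means. Hsd3b5 separated the sexes with a gap from 20.2 to 195 CPM. Hsd11b1 and Hsd17b2 overlapped between the sexes in both modes of conception, and Akr1c6 did so among IVF livers only.

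Hsd3b5 showed the largest sex difference of the 9 genes. Its product works mainly as a ketosteroid reductase that inactivates androgens such as dihydrotestosterone, using the reverse of the reaction of the hormone-making members of the family. It had 195, 223 and 217 CPM in natural males and 232, 246 and 245 CPM in IVF males. Natural females had 1.93, 2.28 and 0.23 CPM, from 48, 19 and 4 counts, and IVF females had 20.2, 1.83 and 8.98 CPM, from 136, 44 and 210 counts. Every male lay above every female in both modes of conception, and the males of a group differed by far less, in proportion, than the females. The standard deviation was 7.07% of the mean in natural males and 3.06% in IVF males, against 74% and 89.6% in females. The log2 fold change was 7.21 ± 0.88 (SE) among natural livers, with an adjusted p of 0.00099 in edgeR with Benjamini-Hochberg adjustment. Among IVF livers it was 4.60 ± 0.76, with an adjusted p of 0.0076 in the same test, and 5.45 without the shallow IVF female replicate 1.

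The IVF females did not form a tight group for Hsd3b5. Replicates 1 and 3 lay above all natural females and replicate 2 lay among them. The log2 fold change of IVF over natural females was 2.80 ± 0.77 (SE, 95% interval 1.12 to 4.48), with an unadjusted p of 0.0036 and an adjusted p of 1 in edgeR with Benjamini-Hochberg adjustment. Without IVF female replicate 1, a shallow library, it was 1.94. In males the 3 IVF livers lay above the 3 natural livers by a small margin, with a log2 fold change of 0.19 ± 0.65 (SE). The interaction (change after IVF in males minus the change in females) was -2.61 ± 0.998 (SE), and -1.76 without IVF female replicate 1. Its unadjusted p was 0.0228 and its adjusted p 1 in edgeR with Benjamini-Hochberg adjustment, so a difference between the sexes in the change after IVF was not shown.

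Hsd3b2, a 3-beta dehydrogenase and isomerase of the kind that turns pregnenolone into progesterone, was also higher in every male than in every female. Natural females had 32.7, 28.8 and 27.0 CPM and natural males 119, 96.3 and 129 CPM. IVF females had 24.5, 28.7 and 56.5 CPM and IVF males 132, 131 and 111 CPM. Natural females were closely alike, and IVF female replicate 3 stood above the other females at less than the lowest male. The male minus female log2 fold change was 1.96 ± 0.28 (SE) among natural livers and 1.77 ± 0.28 among IVF livers, with adjusted p of 0.0039 and 0.0062 in edgeR with Benjamini-Hochberg adjustment. For IVF against natural livers the log2 fold change was 0.32 ± 0.28 in females (95% interval -0.29 to 0.92) and 0.12 ± 0.27 in males (-0.47 to 0.72). The female value was -0.15 without IVF female replicate 3.

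Hsd3b3, the near copy of Hsd3b2 in sequence, followed another pattern. Natural females had 105, 46.5 and 27.8 CPM, the widest spread of the 4 groups relative to the mean, and natural males had 205, 289 and 199 CPM. IVF females had 118, 166 and 116 CPM and IVF males 126, 205 and 184 CPM. The sexes were apart among natural livers and overlapped among IVF livers, where the lowest male was below the highest female. Males minus females gave 1.95 ± 0.41 (SE) on the log2 scale among natural livers and 0.37 ± 0.40 among IVF livers, with adjusted p of 0.036 and 0.737 in edgeR with Benjamini-Hochberg adjustment. The natural call was lost, with an adjusted p of up to 0.123 and a log2 fold change of 1.61 to 2.05, without any 1 of natural female replicates 2 and 3 or the 3 natural males. It was also lost, at 0.0515 to 0.0577 and with the value at 1.95, without any 1 of IVF female replicate 3 or the 3 IVF males, which enter only the estimate of the spread. Without natural female replicate 1 it was kept, at 2.64 with an adjusted p of 0.0029. A fit to the natural livers alone gave 0.124, and one without both shallow libraries 0.0998. Averaged over both modes the value was 1.16 ± 0.29 with an adjusted p of 0.0329 in the same fit. That call was lost, at up to 0.0774, without any 1 of the 3 IVF females, IVF male replicates 2 and 3, natural female replicate 2 or the 3 natural males, at 0.0854 without both shallow libraries and at 0.0602 with a covariate for them.

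All 3 IVF females had more Hsd3b3 than any natural female. The log2 fold change was 1.16 ± 0.40 (SE, 95% interval 0.27 to 2.04), with an unadjusted p of 0.0146 and an adjusted p of 1 in edgeR with Benjamini-Hochberg adjustment. Groups were apart in this way, in either direction, in 7.42% of all genes in females and 8.91% in males. In males the change was -0.42 ± 0.40 with overlapping groups, and the interaction was -1.58 ± 0.57, with an unadjusted p of 0.0167 and an adjusted p of 1 in edgeR with Benjamini-Hochberg adjustment. Without natural female replicate 1 the female value was 1.85, and without natural female replicate 3 it was 0.84.

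The make-up of the Hsd3b reads differed between the sexes. Of the reads counted to Hsd3b2, Hsd3b3 and Hsd3b5 together, Hsd3b5 took 38.0% ± 1.61 (SD, n = 3) in natural males and 45.0% ± 2.62 in IVF males. It took 1.58% ± 1.27 in natural females and 6.10% ± 5.83 in IVF females. Hsd3b3 was the largest share in all 6 females, from 50.5% to 84.4%. The sum of the 3 genes was 90.6 ± 43.6 CPM in natural females, 180 ± 17.01 CPM in IVF females, 557 ± 46.1 CPM in natural males and 538 ± 45.8 CPM in IVF males (SD, n = 3). The 3 IVF females, at 163 to 196 CPM, lay above the 3 natural females, at 55.0 to 139 CPM, and below all males.

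**Figure D2:**
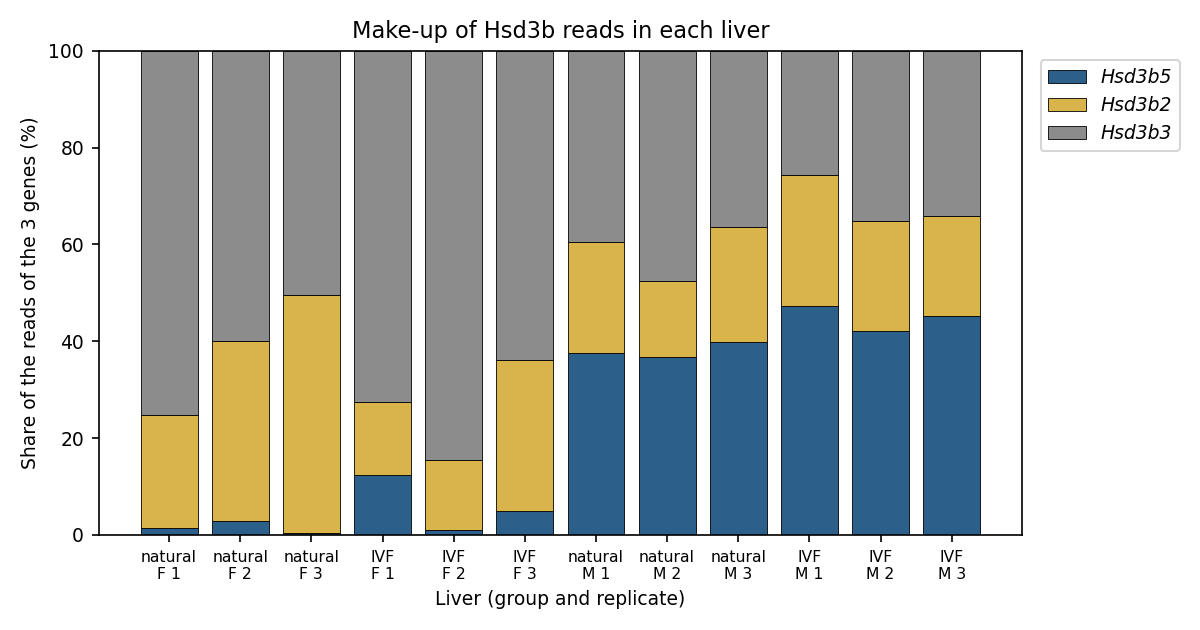
Share (%) of the counted reads of Hsd3b5 (blue), Hsd3b2 (yellow) and Hsd3b3 (grey) in each of the 12 livers. Hsd3b5 took 36.7% to 47.4% in the 6 males and at most 12.4% in the 6 females.

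Summing Hsd3b4 with Hsd3b5 could hardly change the sex difference of Hsd3b5, because Hsd3b4 added few reads. In natural male replicate 1 the sum had 195.4 CPM, against 194.7 CPM for Hsd3b5 alone. In IVF female replicate 1 these were 20.5 and 20.2 CPM. Reads counted to neither gene are not recovered by the sum. Hsd3b4 and Hsd3b5 together gave male minus female log2 fold changes of 7.18 ± 0.88 and 4.58 ± 0.76 (SE) in natural and IVF livers, with adjusted p of 0.00107 and 0.0081 in edgeR with Benjamini-Hochberg adjustment. Hsd3b2, Hsd3b3 and Hsd3b6 together gave 1.95 ± 0.29 among natural livers, with an adjusted p of 0.0054, and 0.81 ± 0.29 among IVF livers, with 0.203, so that the call of Hsd3b2 among IVF livers was not shared by the sum. The sum in IVF females was 0.92 ± 0.29 above natural females, with an unadjusted p of 0.0077 and an adjusted p of 1. How reads were divided between Hsd3b2 and Hsd3b3 cannot be told from the counts.

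Srd5a1 and Srd5a2 encode the 5-alpha reductases that turn testosterone into dihydrotestosterone and that also start the breakdown of glucocorticoids and progesterone. Srd5a1, on chromosome 13 (69573449 to 69611442), is the form known from liver. Natural females had 55.9, 19.7 and 26.8 CPM and natural males 161, 80.2 and 66.7 CPM. IVF females had 24.9, 15.8 and 51.0 CPM and IVF males 64.4, 82.4 and 66.7 CPM. The 6 males lay above the 6 females, natural male replicate 1 far above the other males. The male minus female log2 fold change averaged over both modes was 1.399 ± 0.34 (SE), with an adjusted p of 0.0326 in edgeR with Benjamini-Hochberg adjustment. Alone, the natural value of 1.58 ± 0.49 had an adjusted p of 0.147 and the IVF value of 1.22 ± 0.49 one of 0.258. The average call was lost, with an adjusted p of up to 0.0714, without IVF female replicate 1 or 2, any 1 of the 3 IVF males, natural female replicate 2 or 3, or natural male replicate 1. It was also lost without both shallow libraries, at 0.0771, and with a covariate for them, at 0.060, while DESeq2 called the natural value, at 0.0283. IVF against natural livers gave -0.16 ± 0.48 in females (95% interval -1.21 to 0.89) and -0.53 ± 0.48 in males (-1.57 to 0.51).

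Srd5a2, on chromosome 17 (74016955 to 74047916), was close to the limit of detection, with 3 to 35 counts per liver, where 3 counts, the smallest number taken as detection, are worth 0.119 to 0.445 CPM. Natural females had 1.28, 0.48 and 0.58 CPM and IVF females 0.45, 1.16 and 1.496 CPM. Natural males had 0.64, 0.90 and 0.83 CPM and IVF males 0.41, 0.34 and 0.35 CPM, from 6 or 7 counts each. The IVF males lay below the natural males and below the IVF females, and in both female groups 1 liver stood apart from the other 2. IVF minus natural was -1.09 ± 0.49 on the log2 scale in males (SE, unadjusted p 0.0451) and 0.42 ± 0.45 in females, with an adjusted p of 1 for both in edgeR with Benjamini-Hochberg adjustment. The interaction was -1.51 ± 0.67, with an unadjusted p of 0.0426 and an adjusted p of 1 in edgeR with Benjamini-Hochberg adjustment. Among IVF livers males minus females gave -1.57 ± 0.49, with an adjusted p of 0.14, and with a covariate for the 2 shallow libraries this was called, at 0.0373.

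Hsd11b1, on chromosome 1 (193221634 to 193264075), encodes the reductase that regenerates active corticosterone inside the cell with NADPH made by the product of H6pd. Natural females had 717, 578 and 728 CPM and natural males 662, 538 and 557 CPM. IVF females had 651, 753 and 619 CPM and IVF males 483, 634 and 598 CPM. The 4 groups overlapped, and this was among the steadiest of the 9 genes, with a standard deviation of 13% of the mean over all 12 livers. Male minus female log2 fold changes were -0.20 ± 0.19 (SE, 95% interval -0.62 to 0.21) among natural and -0.24 ± 0.19 (-0.65 to 0.18) among IVF livers. IVF minus natural gave 0.00 ± 0.19 in females (95% interval -0.42 to 0.42) and -0.03 ± 0.19 in males (-0.45 to 0.38).

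Hsd17b2 and Hsd17b6 encode oxidative enzymes. Hsd17b2, on chromosome 8 (117701904 to 117759027), inactivates oestradiol and testosterone at carbon 17, and Hsd17b6, on chromosome 10 (127990936 to 128007611), turns androstanediol back into dihydrotestosterone. Hsd17b2 had 108, 101 and 63.2 CPM in natural females, 65.6, 110 and 99.0 CPM in natural males, 124, 83.1 and 109 CPM in IVF females and 63.8, 86.6 and 69.0 CPM in IVF males. All 4 groups overlapped, and IVF males had the lowest mean. The male minus female log2 fold change was 0.01 ± 0.26 (SE) among natural and -0.53 ± 0.26 among IVF livers, with adjusted p of 0.986 and 0.382 in edgeR with Benjamini-Hochberg adjustment. IVF minus natural was 0.22 ± 0.26 in females (95% interval -0.35 to 0.79) and -0.32 ± 0.26 in males (-0.89 to 0.25).

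Hsd17b6 was the member whose natural females stood highest. They had 384, 380 and 290 CPM, against 241, 265 and 243 CPM in natural males, 220, 305 and 256 CPM in IVF females and 244, 271 and 304 CPM in IVF males. Natural females lay above natural males, by a margin set by replicate 3, and their range overlapped that of IVF females. The male minus female log2 fold change among natural livers was -0.49 ± 0.19 (SE), with an unadjusted p of 0.0227 and an adjusted p of 0.241 in edgeR with Benjamini-Hochberg adjustment. It was called, at 0.0405, when libraries were scaled by their size alone. IVF minus natural in females was -0.43 ± 0.19 (95% interval -0.84 to -0.02), with an unadjusted p of 0.0401 and an adjusted p of 1. In males it was 0.13 ± 0.19.

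Akr1c6, on chromosome 13 (4434306 to 4457877), encodes an aldo-keto reductase that converts androstenedione to testosterone and oestrone to oestradiol. Natural females had 743, 787 and 600.4 CPM and natural males 855, 1043 and 899.5 CPM. IVF females had 835, 867 and 842 CPM and IVF males 879, 1192 and 836 CPM. Natural males lay above natural females, IVF females lay above natural females, and the IVF sexes overlapped. The male minus female log2 fold changes were 0.39 ± 0.20 (SE) among natural and 0.19 ± 0.20 among IVF livers, with adjusted p of 0.387 and 0.724 in edgeR with Benjamini-Hochberg adjustment. IVF minus natural gave 0.26 ± 0.20 in females (95% interval -0.18 to 0.69) and 0.06 ± 0.20 in males (-0.38 to 0.49).

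**Figure D3:**
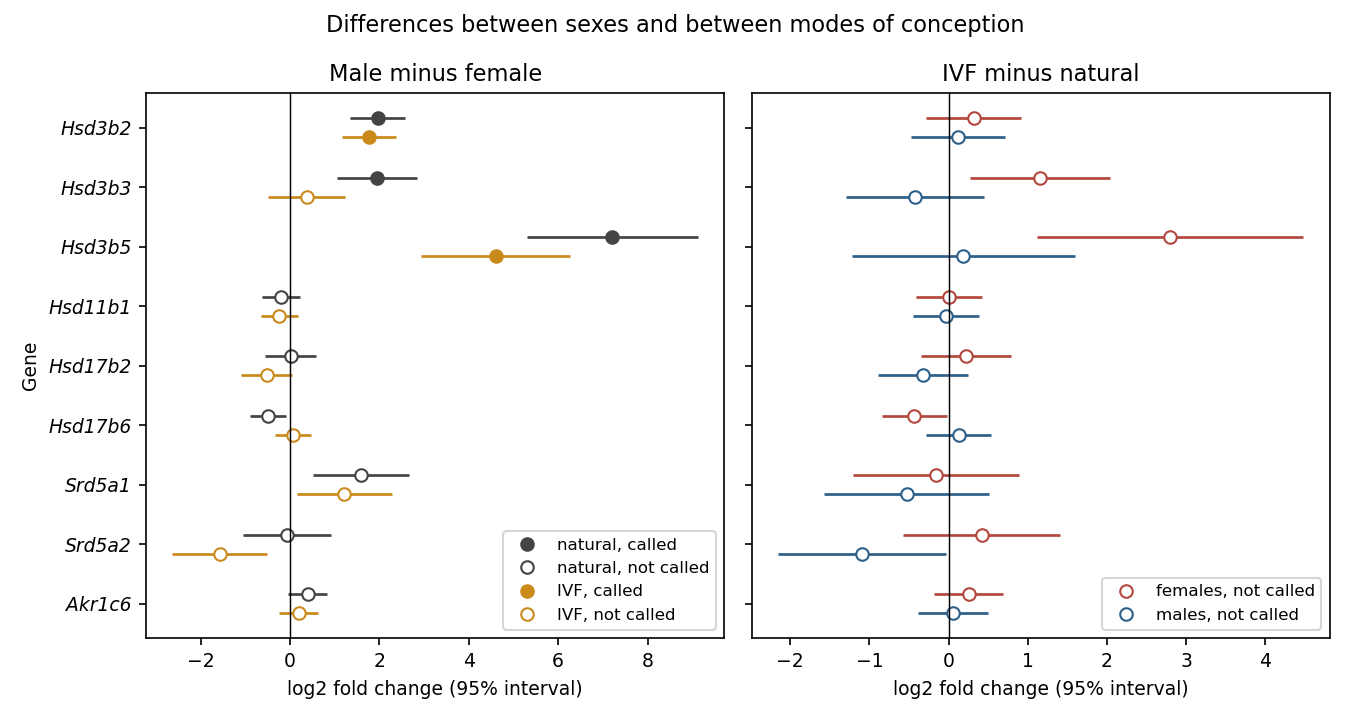
Log2 fold change of each gene with its 95% interval, for males minus females (left, natural grey, IVF orange) and for IVF minus natural (right, females red, males blue). Filled points were called by edgeR with Benjamini-Hochberg adjustment over all genes. The 5 filled points are Hsd3b2 and Hsd3b5 in both modes of conception and Hsd3b3 among natural livers, and the right panel has none.

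In the IVF comparisons an unadjusted p under 0.05 was found for 3 of the 9 genes in females (Hsd3b3, Hsd3b5 and Hsd17b6), where 3.7% of all genes had one. In males it was found for 1 (Srd5a2), against 2.69%, and in the interaction for 3 (Hsd3b3, Hsd3b5 and Srd5a2), against 3.87%. DESeq2 and limma voom also called 0 of the 9 genes in these 3 comparisons. Groups were apart for 2 genes in females (Hsd3b3 and Akr1c6, both higher after IVF), against 7.42% of all genes. In males they were apart for 2 (Hsd3b5 higher, Srd5a2 lower), against 8.91%. Between the sexes, 6 of the 9 genes were apart among natural livers, against 20% of all genes, and 4 among IVF livers, against 21.8%. With 6 livers a sex, 3 were apart (Hsd3b2, Hsd3b5 and Srd5a1), against 5.75%.

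Levels can be compared between genes only per transcript length, here CPM per kilobase of the longest coding transcript. In females the order was Akr1c6, at 558 ± 70.2 (SD, n = 6), then Hsd11b1 at 416 ± 42.5, Hsd17b6 at 201 ± 43.3, Hsd17b2 at 74.3 ± 16.4 and Hsd3b3 at 62.9 ± 33.2. Srd5a1 followed at 12.2 ± 6.39, Hsd3b2 at 8.94 ± 3.20, Hsd3b5 at 3.81 ± 4.93 and Srd5a2 at 0.57 ± 0.29. Neighbours in that order were apart in range only from Hsd11b1 to Hsd17b6 and from Hsd17b6 to Hsd17b2. The other neighbours overlapped, and Hsd17b2 was above Hsd3b3 in 5 of 6 females.

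In males the order changed mainly through Hsd3b5, while Hsd3b3 had rank 5 in both sexes. Akr1c6 came first, at 681 ± 99.6 CPM per kilobase (SD, n = 6), then Hsd11b1 at 357 ± 40.5 and Hsd17b6 at 172 ± 16.003. Hsd3b5 had rank 4 at 146 ± 12.4, against rank 8 in females, ahead of Hsd3b3 at 131 ± 34.0 and Hsd17b2 at 62.4 ± 14.6. Hsd3b5 and Hsd3b3 overlapped, with Hsd3b5 higher in 4 of 6 males. Srd5a1 at 32.9 ± 14.1 and Hsd3b2 at 32.4 ± 3.82 overlapped as well, and Srd5a2 was last at 0.36 ± 0.15. The place of Hsd3b2 depends on the transcript used, since its longest one has 3695 bases and the next 1788 bases, which would give 18.5 in females and 67.0 in males.

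**Figure D4:**
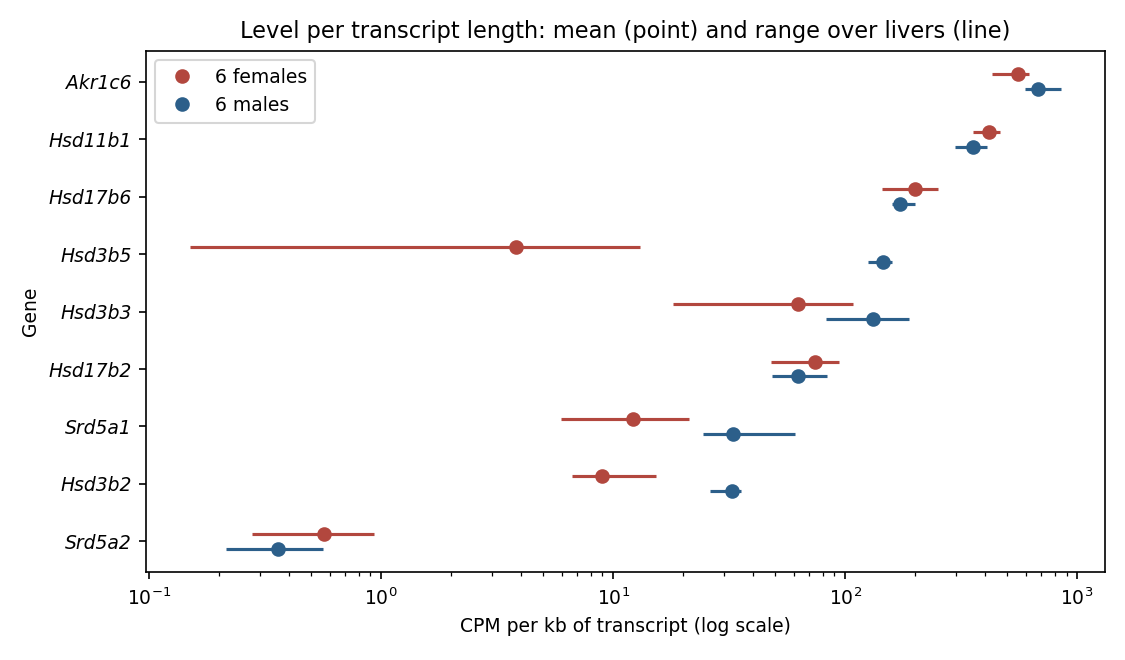
Level per transcript length (CPM per kilobase, log axis) of the 9 genes in 6 females (red) and 6 males (blue). Points are means and lines run from the lowest to the highest liver. Hsd3b5 moved from a mean of 3.81 in females to 146 in males, while Akr1c6 and Hsd11b1 were the top pair in both sexes.

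The other genes of the same chemistry were described from 6 lists, by how many were called and not by a test of the list. On average over both modes 7.2% of all genes were called between the sexes, 3.57% being higher in males. Among the other 3-beta dehydrogenases, 3 of 5 tested genes were called as higher in males on average over both modes of conception, and 0 as lower. These were Hsd3b1 at 1.07 CPM in males and 0.40 CPM in females, Hsd3b6 at 3.04 and 1.34 CPM, and Hsd3b4, with 9 to 19 counts per male and 0 to 2 per female. All 75-base windows of Hsd3b4 are shared with Gm10681, so reads of this pair cannot be told apart, and the fitted size of its difference depends on the constant that edgeR adds to low counts. Hsd3b7, which acts in bile acid synthesis and had the highest CPM of this list, had a log2 fold change of 0.03 ± 0.39 (SE) between the sexes.

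Among the other 11-beta and 17-beta dehydrogenases 1 of 10 was called and it was higher in males. This was Hsd17b12, best known for its part in fatty acid elongation, at 159 CPM in males and 89.5 CPM in females. The difference was 0.84 ± 0.15 (SE) on the log2 scale, with an adjusted p of 0.0071 by edgeR after Benjamini-Hochberg adjustment, and among natural livers alone 1.04 ± 0.22 with 0.0338. H6pd, the partner of Hsd11b1, had 678 ± 7.13 CPM in natural males and 421 ± 219 CPM in natural females (SD, n = 3). In IVF livers it had 528 ± 124 CPM in males and 324 ± 100 CPM in females, and its sex difference of 0.70 ± 0.27 was not called, with an adjusted p of 0.144 by edgeR after Benjamini-Hochberg adjustment.

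Of 12 other steroid and aldo-keto reductases 2 were called as higher in males and 2 as lower. Akr1c14, a 3-alpha dehydrogenase that acts on the products of the 5-alpha reductases, had 583 CPM in males and 337 CPM in females, with a log2 fold change of 0.79 ± 0.17 (SE). Akr1c19 had 57.7 and 27.7 CPM, with 1.05 ± 0.25. Akr1d1, the 5-beta reductase that works on the same substrates as Srd5a1, went the other way, at 163 CPM in males and 314 CPM in females, with -0.98 ± 0.22. Cbr1, a carbonyl reductase, was lower in every male, at 47.3 against 87.2 CPM, with -0.88 ± 0.12. The adjusted p for these 4 genes ran from 0.0008 to 0.0282 in edgeR with Benjamini-Hochberg adjustment. In single modes of conception, Cbr1 was called among natural and among IVF livers, and Akr1d1 among IVF livers, at -1.51 ± 0.31. Over all genes 1.77% were called among natural and 2.19% among IVF livers. The log2 ratio of Srd5a1 to Akr1d1 CPM was -3.16 ± 0.98 in natural females, -3.66 ± 0.51 in IVF females, -1.09 ± 0.78 in natural males and -0.69 ± 0.48 in IVF males (SD, n = 3).

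Some genes of hormone synthesis and hormone response were also called between the sexes on average over both modes, where 7.2% of all genes were called. Of 9 synthesis genes 1 was higher and 1 lower in males: Cyp21a1, the 21-hydroxylase, had 2.27 CPM in males and 0.31 CPM in females, and Cyp17a1, the 17-hydroxylase and lyase, had 2.51 and 29.8 CPM, a log2 fold change of -3.62 ± 0.55 (SE). Cyp21a1 had at most 16 counts in a female and its ranges overlapped between the sexes. Of 4 steroid receptors 1 was lower in males, the estrogen receptor gene Esr1, at 18.0 against 52.1 CPM (-1.48 ± 0.16). Of 14 genes taken as targets of the glucocorticoid receptor, Cebpd was higher (1.19 ± 0.27) and Mt2 lower (-1.76 ± 0.43), while 11 of the 14 had a positive sign and the median was 0.86. For these 5 genes the adjusted p ran from 0.00017 to 0.0334 in edgeR with Benjamini-Hochberg adjustment. In single modes of conception, no gene of these 3 lists was called among natural livers, where 1.77% of all genes were called. Among IVF livers, where 2.19% of all genes were called, 1 synthesis gene and 1 receptor were called, both lower in males, and no glucocorticoid receptor target.

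**Figure D5:**
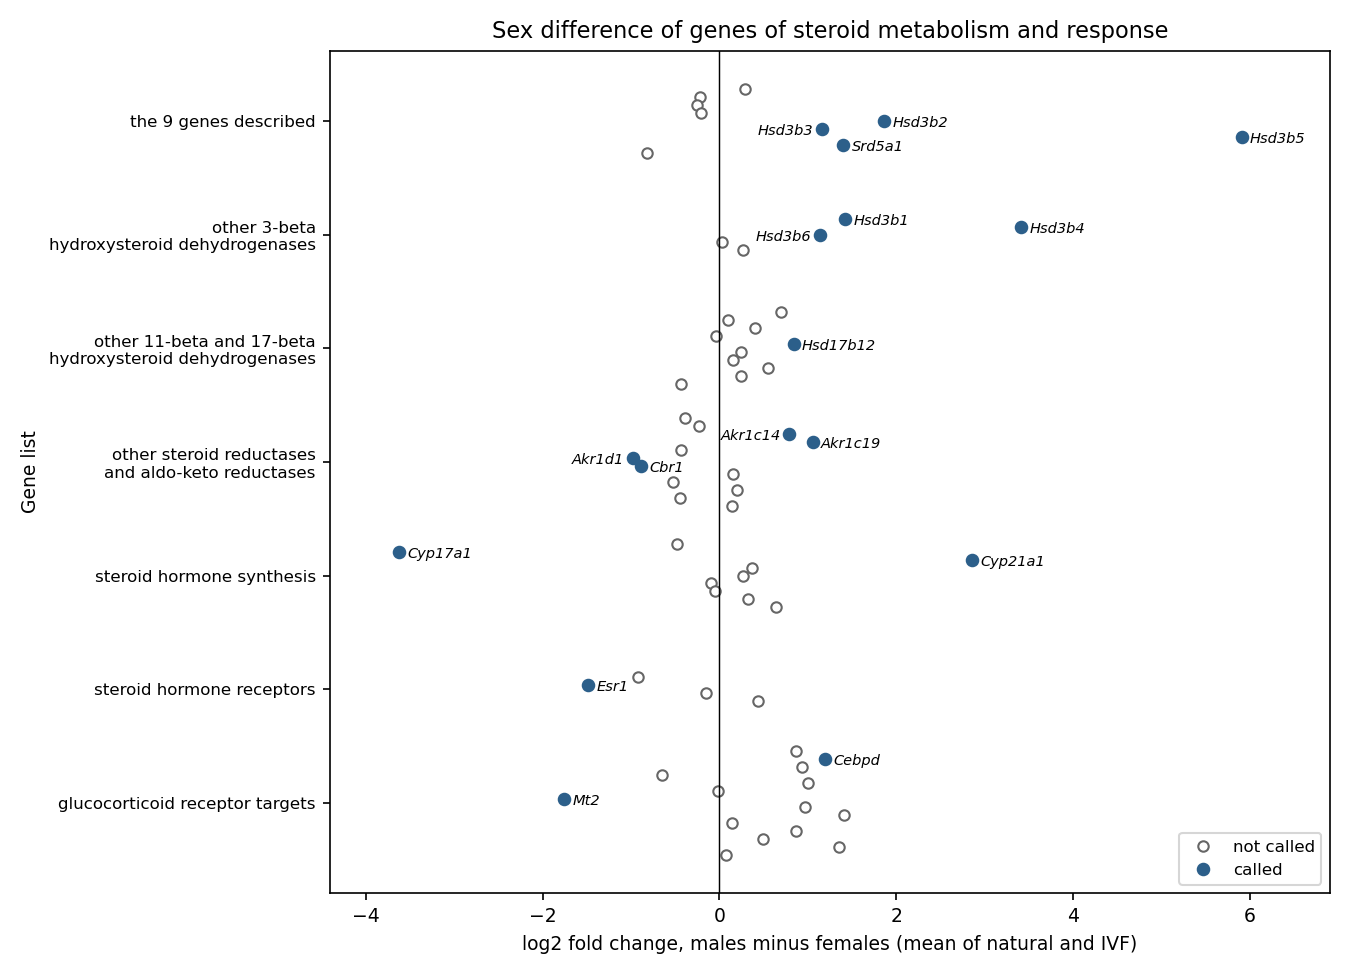
Log2 fold change of males over females (mean of natural and IVF) for the 9 genes and for 6 lists of related genes, 1 point per gene. Filled and named points were called by edgeR with Benjamini-Hochberg adjustment. Hsd3b5 lies farthest to the right at 5.90, and Cyp17a1 farthest to the left at -3.62.

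No gene of these 6 lists was called between IVF and natural livers in females, in males or in the interaction, by edgeR with Benjamini-Hochberg adjustment. Of all genes 0%, 0.00757% and 0% were called there, so the absence of calls is not particular to these lists. The median log2 fold change after IVF in females and in males was 0.96 and -0.27 over the other 3-beta dehydrogenases, -0.16 and -0.056 over the other 11-beta and 17-beta dehydrogenases, and 0.12 and 0.067 over the other reductases. It was 0.071 and -0.095 over the synthesis genes, 0.22 and 0.10 over the receptors, and -0.27 and -0.47 over the glucocorticoid receptor targets. Over all genes tested it was -0.01 in females and 0.01 in males. The median of the other 3-beta dehydrogenases rests on 5 tested genes, of which 3 had a positive sign in females and 2 in males. Among them Hsd3b1, Hsd3b4 and Hsd3b6 had low counts, so the median shows no rise of the family. For the gene of highest CPM in each list the IVF minus natural log2 fold change in females and in males was -0.27 ± 0.55 (SE) and 0.05 ± 0.55 for Hsd3b7, -0.38 ± 0.38 and -0.36 ± 0.38 for H6pd, and 0.03 ± 0.33 and -0.04 ± 0.33 for Rdh7. It was 0.15 ± 0.45 and 0.01 ± 0.45 for Cyb5a, 0.06 ± 0.17 and 0.03 ± 0.17 for the glucocorticoid receptor gene Nr3c1, and 0.87 ± 0.59 and -0.50 ± 0.59 for Pck1, which opens gluconeogenesis. For the next in CPM it was 0.97 ± 0.58 and -0.27 ± 0.57 for Nsdhl of cholesterol synthesis, 0.11 ± 0.22 and 0.09 ± 0.22 for Hsd17b4, and -0.24 ± 0.24 and 0.09 ± 0.24 for Akr1c14. It was -0.07 ± 0.40 and 0.11 ± 0.40 for Tdo2, which breaks down tryptophan. All of these had an adjusted p of 1 in edgeR with Benjamini-Hochberg adjustment.

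Within groups the 9 genes did not move as a block. After subtracting group means from the log2 CPM of the 12 livers, the highest Pearson r between 2 members were 0.75 for Hsd3b5 with Hsd17b2, 0.73 for Hsd3b3 with Hsd17b6 and 0.70 for Hsd17b2 with Akr1c6. For Hsd3b2 and Hsd3b3, near copies and neighbours, r was -0.02, and the lowest was -0.48, for Hsd3b5 with Hsd11b1. These values share libraries, depth and scaling and are descriptions. Of 13195 other genes those close to each member by the same measure were Armt1 (r = 0.95) and Snap47 (0.93) for Hsd3b2, Idnk (0.89) and Map3k4 (0.89) for Hsd3b3, and Cdc16 (0.96) for Hsd3b5. For Hsd11b1 they were Ino80d (0.93) and Ipo9 (0.92), for Hsd17b2 Slc25a35 (0.95) and Fig4 (0.95), and for Hsd17b6 Etfb (0.94) and Dnttip1 (0.93). For Srd5a1 they were Sfxn1 (0.92) and Snd1 (0.92), for Srd5a2 Entpd6 (0.98) and Cyb561d1 (0.97), and for Akr1c6 Lrriq3 (0.92) and Cc2d2a (0.91). Each gene was picked from the top of 13195 values over 12 livers, so a high r follows from the picking and shows no link between the genes. For Srd5a2, with 3 to 35 counts per liver, the deviations also hold counting noise.

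Tissues that could bring in steroid enzymes were looked for by their markers. In bulk liver RNA fewer cells of a type and less RNA per cell cannot be told apart. Of 7 adrenal cortex markers Cyp11b1, Cyp11b2 and Mc2r were at 0 in all 12 livers. Star had 1.48 to 3.88 CPM, Cyp21a1 0 to 3.36 CPM and Akr1b7 0.046 to 1.04 CPM. The summed list ran from 24.7 to 52.1 CPM, most of it Mrap, at 21.1 to 46.7 CPM. The 7 kidney tubule markers, of which Umod was at 0 throughout, summed to 0.12 to 2.25 CPM, and the 7 gonad markers, with Cyp19a1 and Fshr at 0, to 0.14 to 1.68 CPM. The 9 hepatocyte markers in the table summed to 103922 to 112390 CPM in natural females, 111049 to 119590 in IVF females, 100190 to 106268 in natural males and 80831 to 94767 in IVF males. Albumin alone had at least 44666 CPM in each liver, as liver tissue has. The IVF males were thus the lowest in the hepatocyte sum, in which albumin weighs most, and in the 7 Kupffer cell markers. The Kupffer sum was 147 to 213 CPM there, against 265 to 434 CPM elsewhere. With hepatocyte markers weighted equally (mean log2 deviation from each gene's average), IVF males ran from -0.24 to -0.14. Natural females, at -0.15 to 0.17, overlapped them. Ass1, 1 of the 9 hepatocyte markers, had only 0.50 to 4.30 CPM. Of its 75-base windows 46.9% occurred in Gm5424, so its count depends on how reads that fit several genes were treated, which was not tested. Adipocyte markers (7, with Lep and Retn at 0) summed to 6.84 to 10.98 CPM in males and 3.70 to 6.83 CPM in females. Most of this was Fabp4 and Cidec, while Adipoq had at most 0.098 CPM and Plin1 at most 0.137 CPM in any liver. Exocrine pancreas markers (7, with Prss1 at 0) ran from 24.2 to 41.9 CPM in males and 8.34 to 28.04 CPM in females, nearly all of it Cela1. Endothelial markers summed to 236 to 295 CPM in females and 183 to 234 CPM in males, and stellate cell markers to 335 to 484 and 256 to 360 CPM. Pericentral hepatocyte markers ran from 9668 to 15640 CPM and periportal markers from 4918 to 13823 CPM over the 12 livers, with overlapping groups. Cholangiocyte markers ran from 21.9 to 58.3 CPM. Blood markers (7, with Hbb-bs, Hbb-bt and Hba-a2 at 0) ran from 9.23 to 177 CPM, of which the highest was in an IVF male and most was Alas2. Hba-a1 was at 0 in 10 livers, so with globin counts this low the sum does not measure blood content. The part of these in the results was not tested.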

How the data were processed

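The authors deposited 1 table of read counts (whole numbers, by gene symbol) for 12 livers. Per the labels' protocols, poly-A RNA was made into libraries with a KAPA kit. The submitters' processing notes name Trimmomatic 0.32, STAR 2.3.0e, featureCounts 1.5.0 and the build mm10. Strand use and the treatment of multi-gene reads are not given in the sources used here. Of the table's entries, 0 lacked a gene name.

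Counts were tested with edgeR 4.0.16 in R 4.3.3: filterByExpr by group (minimum count 10), TMM scaling, the quasi-likelihood test with 1 mean per group over 12 libraries, and Benjamini-Hochberg adjustment over 13204 genes, called under 0.05. Each SE is the absolute log2 fold change over the square root of F. CPM are TMM-scaled. Correlations of deviations use log2 CPM with a prior count of 2. The model code was tested on simulated data. Positions and transcripts are from GENCODE M21 (GRCm38) and promoter windows from RefSeq (GRCm38.p6).

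Total counts per library ranged from 6826534 to 27832271, and a count of 3 was worth 0.119 to 0.445 CPM. Groups came from the sample titles, and replicates are numbered in accession order. The genes, lists and tests were chosen with earlier results of these data known. Named genes were all members, list genes called in a comparison (at most 4 per list, or the 2 of highest mean CPM where 0 were called; of these, list genes with 0 calls are described for IVF only), and the 2 genes closest to each member. Some genes that this rule names are not reported here. Tried as alternatives were scaling by DESeq2's size factors or by library size alone, 2 other filters, DESeq2 1.42.0, limma voom 3.58.1, robust dispersions, a threshold of 0.1, fits to the groups compared, summed paralogues, a covariate for or removal of the 2 shallow libraries, and leaving out each library.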

Additional observations from a re-analysis of the deposited data

Results flagged for a closer look

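Among 63 genes (the 9 members and the related genes that passed the filter), 2 moved in opposite directions after IVF in the sexes, with all 3 IVF females above the natural females and all 3 IVF males below the natural males. In 1 sex at a time, groups were apart in either direction in 7.42% of all genes in females and 8.91% in males. The share of all genes apart in opposite directions was not counted, so whether 2 of 63 is unusual cannot be told. Esr1, the estrogen receptor gene, had 34.2 ± 5.76 CPM in natural females, 70.01 ± 3.79 in IVF females, 22.3 ± 4.79 in natural males and 13.8 ± 3.13 in IVF males (SD, n = 3). Its interaction on the log2 scale was -1.73 ± 0.31 (SE), with an adjusted p of 0.878 in edgeR with Benjamini-Hochberg adjustment. Por, the electron donor of the microsomal cytochromes P450, had 460 ± 82.8, 649 ± 14.8, 657 ± 233 and 397 ± 15.99 CPM in the same order. Its interaction was -1.22 ± 0.35, with an adjusted p of 1 by edgeR after Benjamini-Hochberg adjustment. Neither difference between the sexes was thus shown over all genes. Groups of 3 livers were not examined for single outlying livers.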

How the results depend on the processing

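The 54 reported log2 fold changes of the 9 genes were recomputed to 1181 alternative values, of which 1104 kept direction and side of the threshold, 33 lost and 4 gained a call, and 40 changed sign. Hsd3b5 was called between the sexes in every fit, as was Hsd3b2 except for the IVF livers in the summed paralogues. The mean sex difference called 4 members, and 2 without both shallow libraries. Leaving out 1 library gave 2 to 4 for the mean, 2 to 3 among natural and 2 among IVF livers. With library size alone the sign changes were Hsd11b1 in IVF females (-0.076), males (0.090) and the interaction (0.17), Hsd3b2 in the interaction (0.00017), and the sex differences of Hsd17b2 in natural (-0.28) and Hsd17b6 in IVF livers (-0.053). Hsd11b1 in IVF females was -0.0013 at a mean of at least 1 CPM, -0.00063 with only the groups compared and -0.058 without the shallow libraries, which also gave 0.020 for its interaction and -0.073 for Hsd17b6 in IVF livers. Hsd17b2 in natural livers was -0.0036 with only the groups compared, and Hsd3b2 in IVF males -0.22 in the summed paralogues. Leaving out 1 library gave -0.12 to 0.15 for Akr1c6 in IVF males, -0.10 to 0.082, -0.12 to 0.072 and -0.12 to 0.072 for Hsd11b1 in IVF females, IVF males and the interaction, -0.19 to 0.21 for Hsd17b2 and -0.26 to 0.55 for Srd5a2 between natural sexes, -0.073 to 0.20 for Hsd17b6 between IVF sexes, -0.15 to 0.55 and -0.43 to 0.27 for Hsd3b2 in IVF females and the interaction, and -0.77 to 0.40 and -0.93 to 0.24 for Srd5a1 in the same 2. Srd5a2 had no value at a mean of at least 1 CPM. The cause was not tested. Library size alone shifted the median of all genes from -0.02 to -0.34 between natural sexes, from 0.01 to 0.14 for IVF in males and from 0.03 to 0.23 for the interaction. Over all genes, calls between the sexes were 234 in natural, 289 in IVF livers and 951 on average, and 678, 721 and 1693 with DESeq2, 510, 313 and 1625 with library size alone, 458, 438 and 1264 with the covariate, and 139 and 201 with only the groups compared. DESeq2 called 4 and 5 genes for IVF in females and males and 9 for the interaction, none of them a member. No paired analysis was possible because the groups share fewer than 2 numbers in the titles (1 IVF female and 1 IVF male have the same leading number, whose meaning is not given) and replicates are counted in accession order.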
